A study of Mus musculus with 21 samples.

Results

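The genes described here are 8 genes of the formative and epiblast states: Pou5f1, Sox2, Otx2, Fgf5, Pou3f1, Utf1, Zic2 and Sall4. They were taken by symbol from 48321 symbols counted in 21 RNA-seq libraries. All 8 were among the 14311 genes that passed the filter on low counts. The libraries came from embryoid bodies, floating aggregates of differentiating mouse embryonic stem cells, collected on day 3 from lines of C57BL/6 background built on A2loxCre, in which a coding sequence is placed behind a doxycycline-inducible promoter. Each of the 7 groups held 3 samples. The control was the parental A2loxCre line with doxycycline, which carries no Twist1 construct. The other lines carried Twist1 as a monomer (with or without doxycycline), as a Twist1 homodimer, or joined to Tcf3, Tcf4 or Tcf12, all with doxycycline. Induced cells had 16 h of doxycycline before collection. TWIST1 is a basic helix-loop-helix factor that pairs with itself or with the E-proteins TCF3, TCF4 and TCF12. The labels do not say whether a line was 1 clone or whether samples of a group were separate cultures, so p-values measure only the spread between these samples, which may be technical.

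When mouse embryonic stem cells leave the naive state they first enter a formative state, in which they can respond to germ layer signals, and then become primed epiblast. OCT4 (encoded by Pou5f1), SOX2 and SALL4 are transcription factors of pluripotent cells that are kept across these steps. OTX2, OCT6 (Pou3f1) and ZIC2 are transcription factors that help to redirect OCT4 to the enhancers of formative genes, FGF5 is a secreted growth factor long used as an epiblast marker, and UTF1 is a chromatin-associated protein of undifferentiated cells.

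In these libraries the 8 genes did not move as a block. Fgf5 and Zic2 were lower in the construct lines than in the parental line, most of all in the libraries labelled TWIST1-TCF3, where mean Fgf5 was 3.57-fold and mean Zic2 2.76-fold below the parental mean. Sox2 was above the parental line in the monomer and homodimer lines and below it in the TCF4 dimer libraries and those labelled TWIST1-TCF12, and Otx2 had the opposite order. Utf1 and Pou3f1 had their highest means in the monomer line with and without doxycycline. Pou5f1 passed the test against the parental line, over all 21 samples, in the libraries labelled TWIST1-TCF3 alone.

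Sequences just before the transcription start are shown for 4 genes: Pou5f1 and Sox2, the core factors, Utf1, whose highest means were in the monomer line, and Fgf5, the member with the widest range. They are RefSeq sequence on build GRCm38.p6, + strand, from windows of 300 bases (250 before to 50 after a RefSeq start), cut where the GENCODE M21 gene or the RefSeq transcript begins. Windows were matched for 5 of the 8 genes (Pou5f1, Sox2, Otx2, Fgf5 and Utf1). Each was searched on both strands for the E-box CANNTG, the letters that basic helix-loop-helix dimers read, for the E-box form CAGATG, and for ATGCAAA, part of the octamer that POU factors read. Capitals mark a match.
Pou5f1, 17:35505782-35506017: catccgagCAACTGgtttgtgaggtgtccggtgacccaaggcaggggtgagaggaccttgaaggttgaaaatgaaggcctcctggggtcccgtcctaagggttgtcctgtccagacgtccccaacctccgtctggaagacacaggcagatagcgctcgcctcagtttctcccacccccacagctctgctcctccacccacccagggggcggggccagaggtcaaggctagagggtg
Sox2, 3:34649745-34649994: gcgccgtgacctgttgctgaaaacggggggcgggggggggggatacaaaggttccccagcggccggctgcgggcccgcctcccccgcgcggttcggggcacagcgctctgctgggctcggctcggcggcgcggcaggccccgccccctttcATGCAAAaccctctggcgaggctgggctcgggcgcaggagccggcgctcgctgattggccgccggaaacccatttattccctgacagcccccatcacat
Utf1, 7:139943606-139943788: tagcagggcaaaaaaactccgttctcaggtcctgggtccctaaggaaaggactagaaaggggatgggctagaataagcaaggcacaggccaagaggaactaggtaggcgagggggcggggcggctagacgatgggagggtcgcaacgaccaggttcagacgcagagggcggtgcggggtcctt
Fgf5, 5:98253934-98254183: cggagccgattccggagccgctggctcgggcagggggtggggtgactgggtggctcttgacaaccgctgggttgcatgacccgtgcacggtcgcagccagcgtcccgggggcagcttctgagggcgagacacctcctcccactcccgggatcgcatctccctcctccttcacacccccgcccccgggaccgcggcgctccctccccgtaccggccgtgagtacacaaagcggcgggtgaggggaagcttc
The Pou5f1 stretch held 1 CANNTG and the Sox2 stretch 1 ATGCAAA. The Utf1 and Fgf5 stretches, and their whole windows, held none of these letters. The whole Sox2 window held 1 CANNTG beside its ATGCAAA. The Pou5f1 windows held 1 and 2 CANNTG, and the Otx2 windows 0 to 2, of which 1 was a CAGATG. Over 32851 whole windows of 300 bases, longer than the stretches shown, 72.3% held CANNTG, 17.2% CAGATG, which is also a CANNTG, and 4.63% ATGCAAA. A match is a description of letters, and no binding was measured here.

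On build GRCm38 (GENCODE M21), Pou5f1 lies at 17:35506018-35510772 (+), Sox2 at 3:34650405-34652461 (+, a single exon), Otx2 at 14:48657677-48673819 (-) and Fgf5 at 5:98254184-98277030 (+). Pou3f1 lies at 4:124656807-124660655 (+, a single exon), Utf1 at 7:139943789-139945112 (+), Zic2 at 14:122475435-122479852 (+) and Sall4 at 2:168748332-168767943 (-). The counts cover each gene's exons as a whole and do not separate isoforms. The strand setting of the counting is not given in the sources used here, so reads of a gene and of an overlapping antisense gene cannot be told apart. The overlapping genes with counts were low: Gm19553 (317 bases shared with Pou5f1 exons) and Otx2os1 (154 bases shared with Otx2 exons) had at most 2 counts in a library, Gm14261 (526 bases shared with Sall4 exons) at most 5, and Sox2ot, which spans Sox2 without sharing exon bases, at most 14. The antisense gene Gm2164 (330 bases shared with Pou3f1 exons) and Gm49154 (168 bases shared with Otx2 exons) were not among the counted symbols. Their level is therefore not known here.

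Total counts per library ranged from 6648842 to 15999693, and 3 counts, the smallest abundance taken as seen, equalled 0.188 to 0.451 CPM (reads of a gene relative to the library total after TMM correction). This floor covers counting error only, and all 8 genes stood far above it. Twist1 averaged 8.11 ± 0.79 CPM (SD, n = 3) in the parental line, 5.07 in the uninduced monomer line, 613 with the monomer induced and 182 with the homodimer. It averaged 55.2 and 42.3 CPM in the libraries labelled TWIST1-TCF3 and TWIST1-TCF12 and 39.4 CPM in the TCF4 dimer line. Tcf4 rose in its own line (330.4 CPM against 47.5 in the parental line). Tcf3 was not raised in the libraries labelled TWIST1-TCF3 (154 against 167 CPM). Tcf12 averaged 93.1 CPM in the libraries labelled TWIST1-TCF12 (113 without sample 1) and 104 in those labelled TWIST1-TCF3, with overlapping ranges, so the partner genes do not set those 2 labels apart. In 2 groups, sample 1 stood apart from its replicates: the chi-square per degree of freedom over genes was 36.3 and 40.9 for sample 1 of the uninduced monomer line and 90.4 and 111 for sample 1 labelled TWIST1-TCF12, against 1.44 to 4.04 for all other replicate pairs. With that last library left out, the common biological coefficient of variation of the fit fell from 0.120 to 0.0539, and more genes passed in every comparison between groups. Its deviations from samples 2 and 3 ran with exonic length across 13880 genes (Spearman rho -0.57, across genes, which are not independent). Calls of the 8 genes against the parental line and the induced monomer line that change without this library are given both ways.

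Scaled by exonic length, Pou5f1 and Utf1 were the most abundant of the 8 genes. In the parental line Pou5f1 stood at 260.2 CPM per kb, Utf1 at 198, Sox2 at 87.1, Zic2 at 70.8, Fgf5 at 69.3, Sall4 at 46.5, Otx2 at 45.5 and Pou3f1 at 25.1. Utf1 exceeded Pou5f1 in the monomer line without doxycycline (311 against 250.5 CPM per kb) and with it (326 against 250.6), and in the libraries labelled TWIST1-TCF3 (213 against 187). It did so in the libraries labelled TWIST1-TCF12 with sample 1 (275 against 263) and not without it (214 against 223). Sox2 was the third and Pou3f1 the lowest in all 7 groups, level with Otx2 in the uninduced monomer line (39.3 CPM per kb for both), while Fgf5 and Zic2 moved from the middle of the order in the parental line to just above Pou3f1 in the libraries labelled TWIST1-TCF3 (19.4 and 25.7 CPM per kb).

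**Figure D1:**
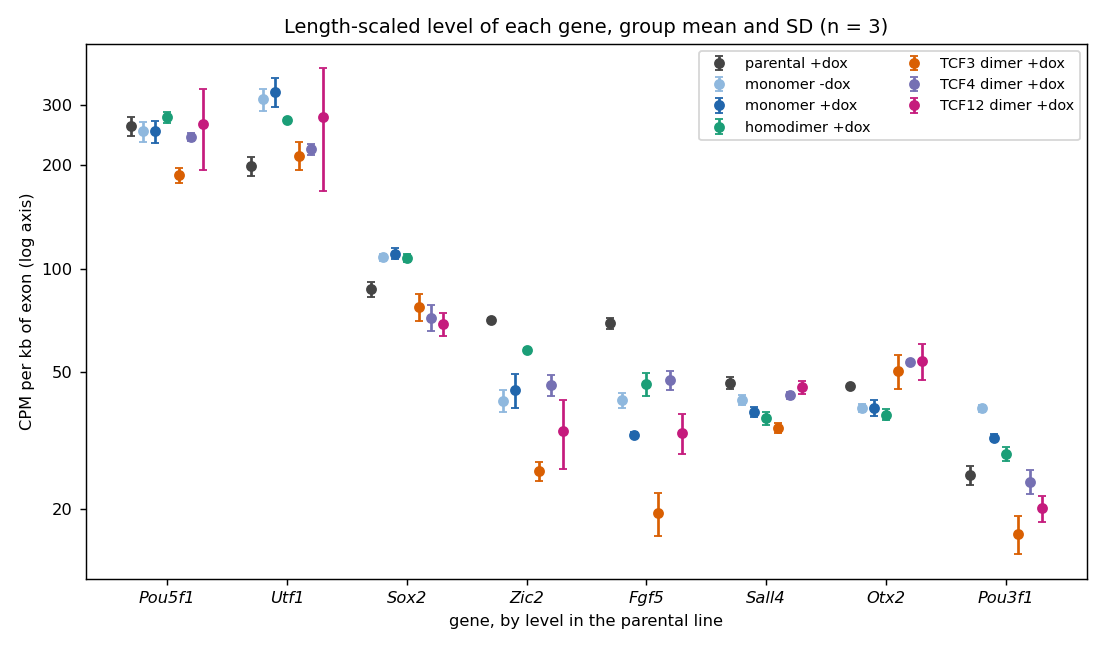
Level of each of the 8 genes per kb of exon (mean and SD, n = 3, log axis) in the 7 groups, coloured by group. Pou5f1 and Utf1 lie above 180 CPM per kb in every group, and Pou3f1 is the lowest gene in every group.

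Pou5f1, the core pluripotency factor, stood at 628, 564 and 563 CPM in the 3 parental libraries and at 396, 437 and 426 CPM in those labelled TWIST1-TCF3. Its TCF4 dimer libraries had 552, 526 and 551 CPM, and its homodimer libraries 609, 647 and 602 CPM. The libraries labelled TWIST1-TCF3 were the lowest 3 of the 21 and overlapped with no other group. Pou5f1 was lower there than in the parental line by a log2 fold change of -0.48 ± 0.12 (SE; edgeR adjusted p = 0.0056), and lower than in the TCF4 dimer line by -0.37 (adjusted p = 0.036, lost when any 1 of those 6 libraries was left out). The libraries labelled TWIST1-TCF12 had 769.9, 494 and 508 CPM, and sample 1 was the highest of all 21. With it the group did not pass against the parental line (log2 fold change 0.01, 95% interval -0.24 to 0.27, adjusted p = 0.94). Without it Pou5f1 was lower by -0.23 (adjusted p = 0.0059). In the monomer line the interval against the parental line ran from -0.31 to 0.20 with or without doxycycline, and in the homodimer line from -0.17 to 0.34.

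Sox2, the partner of OCT4 at many enhancers, separated the groups into a high and a low set. It stood at 179, 188 and 170.3 CPM in the parental libraries. In the monomer line it stood at 220.0, 218 and 228 CPM without doxycycline and at 221, 237 and 224 CPM with it, and the homodimer libraries had 222, 226 and 215 CPM. The libraries labelled TWIST1-TCF3 had 143, 167 and 167 CPM, the TCF4 dimer libraries 133, 157 and 154 CPM, and those labelled TWIST1-TCF12 132, 153 and 140.2 CPM. Every library of the monomer and homodimer lines lay above every parental library, and every library of the 3 heterodimer groups lay below. Against the parental line Sox2 was higher in the monomer line by 0.31 without doxycycline (edgeR adjusted p = 0.0078; 0.051 without parental sample 3) and by 0.34 with it (0.0033), and in homodimer libraries by 0.30 (0.016). It was lower in the TCF4 dimer line by -0.28 (0.024) and in the libraries labelled TWIST1-TCF12 by -0.34 (0.0039). The difference in the libraries labelled TWIST1-TCF3 was -0.17 (95% interval -0.34 to -0.01, adjusted p = 0.11; 0.013 without sample 1 labelled TWIST1-TCF12). The homodimer call was lost without parental sample 1 or 3 or homodimer sample 1 or 2, and the TCF4 dimer call without parental sample 1 or 2 or TCF4 dimer sample 1, at adjusted p from 0.055 to 0.13. Among the high groups, and among the heterodimer groups, no neighbouring pair in the order differed beyond its spread.

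Sall4, a zinc finger factor that acts with OCT4, had the narrowest range of the 8, 1.35-fold between the highest and lowest group mean. It stood at 260.0, 246 and 267 CPM in the parental libraries and at 189.6, 184 and 198 CPM in those labelled TWIST1-TCF3, and these ranges did not overlap. The log2 fold change was -0.44 ± 0.06 (SE; edgeR adjusted p = 1.7e-05). Sall4 was also lower in the homodimer line by -0.35 (0.00064) and in the induced monomer line by -0.28 (0.0020). In the uninduced monomer line (229, 223 and 238 CPM) the difference was -0.16 (0.065) and in the TCF4 dimer line (231, 239 and 242 CPM) -0.12 (0.24). Neither passed over all 21 libraries, although both groups lay wholly below the parental libraries, and both passed without sample 1 labelled TWIST1-TCF12 (0.0048 and 0.047). The libraries labelled TWIST1-TCF12 differed by -0.05 (interval -0.17 to 0.08) and overlapped with the parental ones. No neighbours in the order of the 7 groups differed beyond their spread.

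Otx2, a homeobox factor of the early epiblast and later of the anterior head, was ordered opposite to Sox2. Parental libraries had 192, 191 and 193 CPM. The monomer line ranged from 162 to 171 CPM without doxycycline and from 157 to 174 with it, and the homodimer line from 153 to 165 CPM. The libraries labelled TWIST1-TCF3 had 240.0, 197 and 201 CPM, the TCF4 dimer libraries 224, 224 and 229 CPM, and those labelled TWIST1-TCF12 198, 252 and 234 CPM. All 9 heterodimer libraries lay above the parental libraries and all 9 monomer and homodimer libraries lay below them. The steps from the parental line were small beside the pooled spread: 0.25 in the libraries labelled TWIST1-TCF12 (edgeR adjusted p = 0.035) and -0.27 in the homodimer line (0.046) passed, and 0.23 in the TCF4 dimer line (0.080), 0.15 in the libraries labelled TWIST1-TCF3 (0.21) and -0.21 in the monomer line with (0.091) or without doxycycline (0.086) did not. The -0.27 in the homodimer line lost its call when any 1 of 16 single libraries was left out, and the 0.25 in the libraries labelled TWIST1-TCF12 with any 1 of 8. Without sample 1 labelled TWIST1-TCF12, all 6 differences passed, at adjusted p from 7.9e-05 to 0.044.

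Pou3f1, which encodes OCT6, had its 3 highest libraries in the uninduced monomer line (147, 153 and 154 CPM). It was lowest in the libraries labelled TWIST1-TCF3 (55.6, 71.6 and 67.9 CPM), which overlapped with those labelled TWIST1-TCF12 (83.7, 77.9 and 70.0 CPM). The induced monomer line had 127, 122 and 123 CPM, and the parental line 103, 90.7 and 95.8 CPM. Against the parental line Pou3f1 was higher in the uninduced monomer line by 0.65 ± 0.09 (SE; edgeR adjusted p = 3.2e-05) and in the induced monomer line by 0.36 (0.0063). It was lower in the libraries labelled TWIST1-TCF3 by -0.57 (8.5e-05) and in those labelled TWIST1-TCF12 by -0.32 (0.013; 0.065 without parental sample 1). In the TCF4 dimer line (92.8, 99.4 and 85.0 CPM) it overlapped with the parental line, with an interval of -0.25 to 0.12. The homodimer line (109, 117 and 107 CPM) lay above it by 0.20 (0.20; 0.032 without sample 1 labelled TWIST1-TCF12).

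Zic2, a zinc finger factor of the epiblast and neural plate, was highest in the parental line at 202, 203 and 207 CPM and lowest in the libraries labelled TWIST1-TCF3 at 69.5, 73.6 and 79.0 CPM. The homodimer libraries came next to the parental ones at 169, 166 and 167 CPM. The monomer line had 116, 112 and 129 CPM without doxycycline and 142, 128 and 113 CPM with it, the TCF4 dimer line 121, 138 and 136 CPM, and the libraries labelled TWIST1-TCF12 71.9, 108 and 111 CPM. All 18 libraries of the construct lines lay below the parental libraries, and sample 1 labelled TWIST1-TCF12 lay within the range labelled TWIST1-TCF3. Against the parental line Zic2 was lower by -1.46 ± 0.12 in the libraries labelled TWIST1-TCF3 (SE; edgeR adjusted p = 4.0e-08) and by -1.07 in those labelled TWIST1-TCF12 (2.7e-06; -0.90 without sample 1, 1.6e-11). The monomer line was lower by -0.78 without doxycycline (0.00012) and by -0.68 with it (0.00043), and the TCF4 dimer line by -0.63 (0.0013). The homodimer line differed by -0.29 (0.18), and this passed without sample 1 labelled TWIST1-TCF12 (0.00095).

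Fgf5, the secreted ligand of the set, had the widest range. It stood at 180.3, 169 and 170.2 CPM in the parental libraries and at 41.7, 55.4 and 48.6 CPM in those labelled TWIST1-TCF3. The induced monomer line had 83.8, 81.5 and 81.6 CPM and the uninduced 103, 99.1 and 109 CPM. The homodimer line had 105, 121 and 119.8 CPM, the TCF4 dimer line 111, 117 and 126 CPM, and the libraries labelled TWIST1-TCF12 72.1, 83.0 and 94.4 CPM. The parental libraries were the highest 3 and those labelled TWIST1-TCF3 the lowest 3 of the 21, with no overlap at either end. All 6 differences from the parental line passed: -1.83 ± 0.10 in the libraries labelled TWIST1-TCF3 (SE; edgeR adjusted p = 2.1e-10), -1.06 in those labelled TWIST1-TCF12 (2.5e-07), -1.07 in the monomer line with doxycycline (2.4e-07) and -0.74 without it (2.5e-05), -0.59 in the homodimer line (0.00051) and -0.55 in the TCF4 dimer line (0.00069). In the order of the groups, the steps from the parental line to the next group, from the uninduced monomer line to the libraries labelled TWIST1-TCF12 (adjusted p = 0.018), and from the induced monomer line to the libraries labelled TWIST1-TCF3 (2.5e-05) exceeded the spread, and the TCF4 dimer and homodimer lines did not differ (0.94).

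Utf1, the chromatin-associated factor, was highest in the monomer line, at 406, 387 and 349.8 CPM without doxycycline and 436, 405 and 359 CPM with it, against 252, 225 and 253 CPM in the parental line. These ranges did not overlap, and Utf1 was higher by 0.65 ± 0.17 without doxycycline (SE; edgeR adjusted p = 0.0094) and by 0.72 with it (0.0042). The first of these was 0.59 (0.051) without parental sample 2. The homodimer libraries (334, 335 and 328 CPM) also lay above the parental ones, by 0.45 (0.12; 1.1e-05 without sample 1 labelled TWIST1-TCF12). The libraries labelled TWIST1-TCF12 had 488, 283 and 242 CPM, of which sample 1 was the highest of the 21 libraries. The difference of 0.47 passed with it (0.044) and did not without it (0.11, adjusted p = 0.32); the call was lost in 19 of the 21 fits that left out 1 library. In sample 1 Utf1 stood above the mean of samples 2 and 3 by 0.90 on the log2 scale, beside a median of 0.86 over the 712 genes of like exonic length. For Pou5f1 these values were 0.62 and 0.44. Zic2 (-0.61 beside 0.27), Fgf5 (-0.29 beside 0.37) and Sox2 (-0.15 beside 0.50) were lower in sample 1, below the lower quartile of genes of like length. The libraries labelled TWIST1-TCF3 (interval -0.25 to 0.45) and the TCF4 dimer libraries (interval -0.18 to 0.52) did not differ from the parental line beyond their spread.

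**Figure D2:**
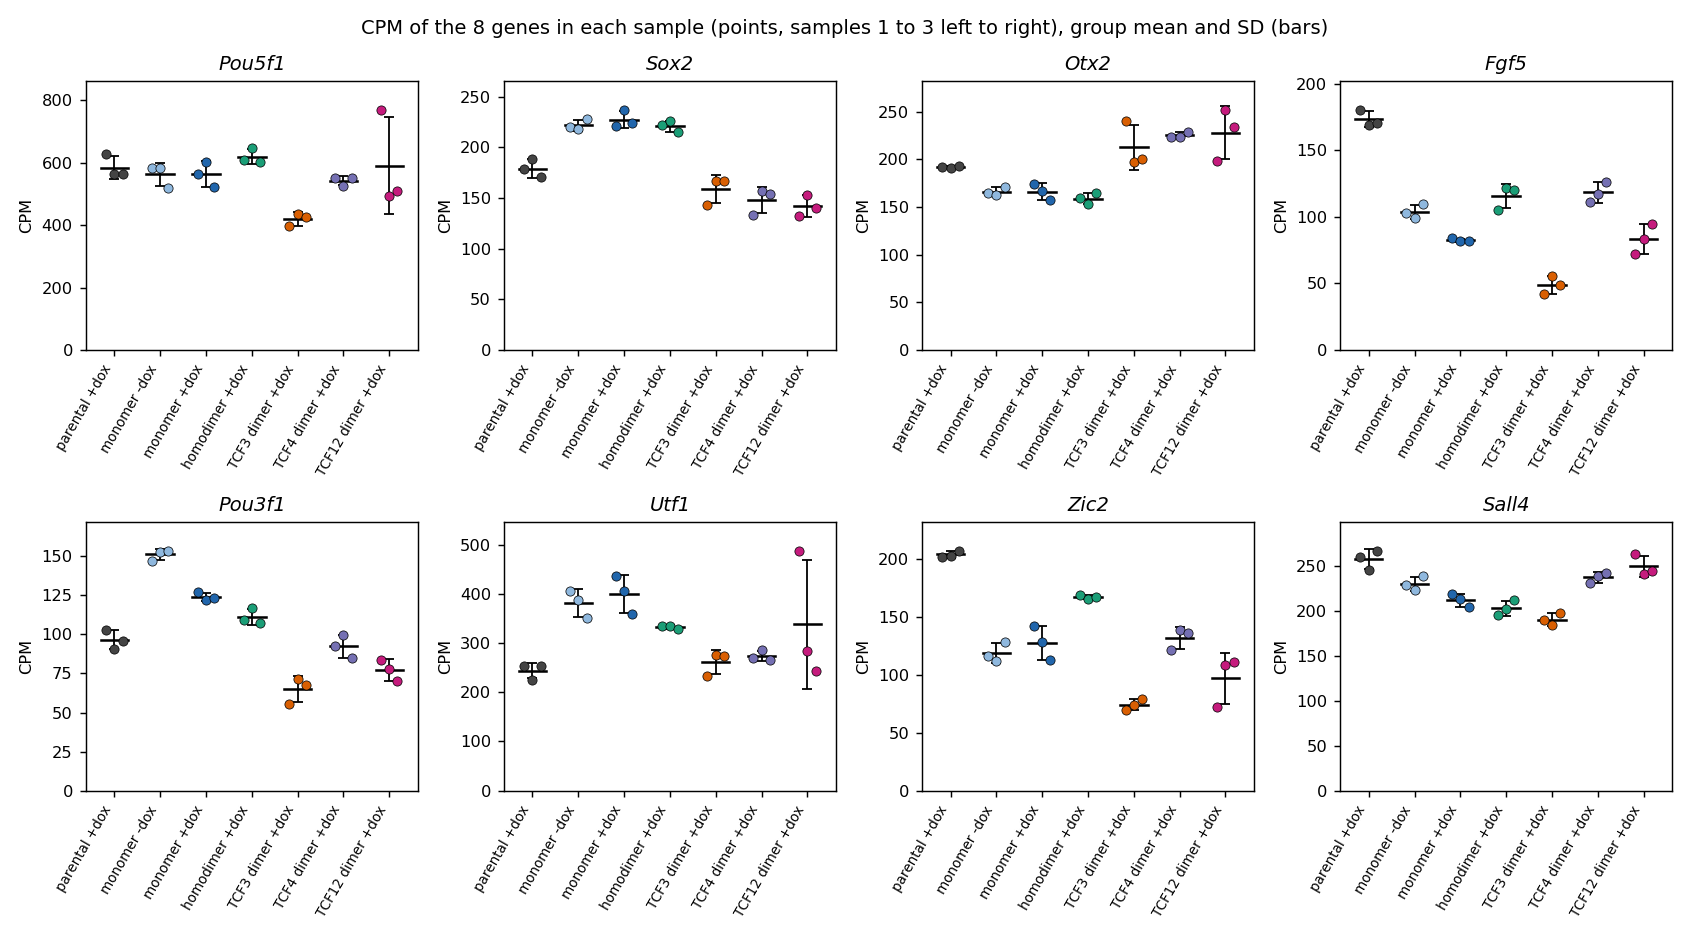
CPM of the 8 genes in each of the 21 libraries (points, samples 1 to 3 from left to right) with group mean and SD (bars); axes start at 0. Fgf5 and Zic2 are highest in the parental line and lowest in the libraries labelled TWIST1-TCF3, and sample 1 labelled TWIST1-TCF12 is the highest library for Pou5f1 and Utf1.

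Counted over the 8 genes, 5 passed in the uninduced monomer line against the parental line (3 higher, 2 lower), where 19.9% of all tested genes passed. In the induced monomer line 6 passed (3 higher, 3 lower) beside 20% of all tested genes, and in the homodimer line 4 (1 higher, 3 lower) beside 8.84%. In the libraries labelled TWIST1-TCF3 5 passed, all lower, beside 28.3% (12% lower), in the TCF4 dimer line 3, all lower, beside 12.9% (5.67% lower), and in those labelled TWIST1-TCF12 6 (2 higher, 4 lower) beside 27%. The median log2 fold change of the 8 genes was -0.11, -0.13, -0.10, -0.46, -0.11 and -0.18 in these comparisons, in the order given, and between 0.00 and 0.02 over all tested genes. These 6 comparisons share the 3 parental libraries. When single libraries were left out the count ran from 2 to 7 in the homodimer line, 2 to 5 in the TCF4 dimer line, 3 to 6 in the libraries labelled TWIST1-TCF12 and 4 to 7 in the uninduced monomer line. Without sample 1 labelled TWIST1-TCF12 the counts were 7 in the homodimer, 5 in the TCF4 dimer and 7 in the uninduced monomer line, where 20.4%, 28.1% and 36.8% of tested genes passed. In the libraries labelled TWIST1-TCF3 7 then passed (1 higher, 6 lower), beside 46.5%, and in the induced monomer line 7 (3 higher, 4 lower), beside 35.2%. The homodimer count was 2 without parental sample 1 or 3 or homodimer sample 1 or 2, and the count labelled TWIST1-TCF12 was 3 without parental sample 1. The share of all tested genes that passed in those fits is not given here.

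**Figure D3:**
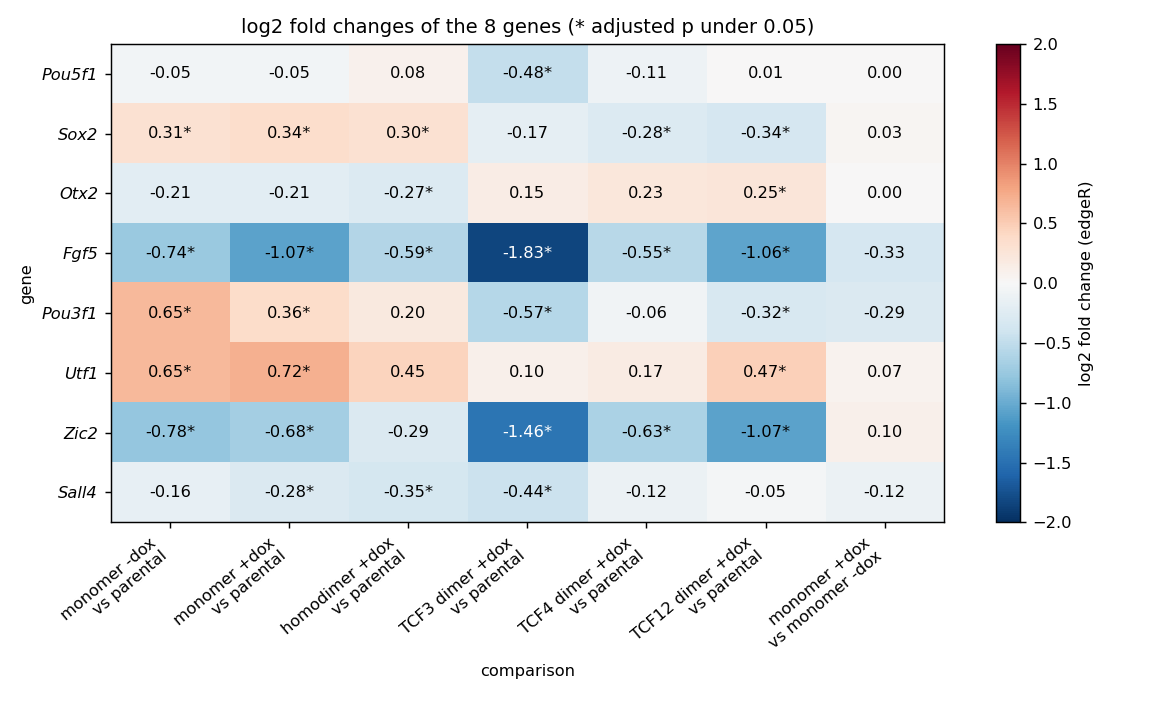
Log2 fold change of the 8 genes (rows) in 7 comparisons (columns), from edgeR over 21 libraries; asterisks mark adjusted p under 0.05. Fgf5 is lower in all 6 construct groups, from -0.55 to -1.83, and Sox2 and Otx2 have opposite signs in each comparison with the parental line.

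Induction was compared within the monomer line, where mean Twist1 was 5.07 CPM without and 613 CPM with the drug, so that doxycycline and Twist1 change together and cannot be told apart. None of the 8 genes passed there (0 by edgeR and 0 by DESeq2; 2 had an unadjusted p under 0.05), beside 2% of all tested genes. Those 2 were Fgf5, lower by -0.33 (adjusted p = 0.12), and Pou3f1, lower by -0.29 (0.14). For neither gene did the groups overlap, and both passed when sample 1 labelled TWIST1-TCF12 was left out (0.0032 and 0.0058, beside 6.17% of tested genes). For Pou5f1 the interval of the difference was -0.25 to 0.25, for Sox2 -0.13 to 0.20, for Otx2 -0.17 to 0.18, for Utf1 -0.28 to 0.42, for Zic2 -0.15 to 0.36 and for Sall4 -0.25 to 0.01. The uninduced monomer line differed from the parental line both in its integrated construct and in the absence of doxycycline, and these cannot be told apart.

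Compared with the induced monomer, the homodimer line had more Fgf5 (0.49, edgeR adjusted p = 0.0017) and more Zic2 (0.39, 0.030), the 2 members that passed, beside 18.5% of tested genes (9.15% higher); 1 to 4 passed when single libraries were left out, 4 of them without sample 1 labelled TWIST1-TCF12 (beside 33.3%) and 1 without monomer sample 2 or 3 or any homodimer sample. In the libraries labelled TWIST1-TCF3 7 members passed against the induced monomer, beside 22.1%: Otx2 was higher (0.36, 0.0042), and Pou3f1 (-0.93, 5.4e-07), Zic2 (-0.79, 0.00012), Fgf5 (-0.76, 2.5e-05), Utf1 (-0.62, 0.012), Sox2 (-0.52, 8.3e-05) and Pou5f1 (-0.42, 0.016) were lower. In the TCF4 dimer line 5 passed, beside 27.4%: Fgf5 (0.52) and Otx2 (0.44) were higher, and Sox2 (-0.62), Utf1 (-0.55) and Pou3f1 (-0.43) lower. In the libraries labelled TWIST1-TCF12 5 passed, beside 33.5%: Otx2 (0.46) and Sall4 (0.24) were higher, and Pou3f1 (-0.69), Sox2 (-0.68) and Zic2 (-0.39) lower. Without sample 1 labelled TWIST1-TCF12, 7 passed in that group, beside 42.4%: Utf1 went from -0.25 (0.27) to -0.60 (2.1e-07), Pou5f1 from 0.07 (0.69) to -0.16 (0.037), and Zic2 to -0.21 (0.020). Leaving it out also added Sall4 in the libraries labelled TWIST1-TCF3 (-0.15, 0.0088; 8 passed beside 40.9%) and in the TCF4 dimer line (0.17, 0.0032; 6 passed beside 45.5%), and Pou5f1 (0.15, 0.038) and Utf1 (-0.25, 0.0044) in the homodimer line. These 4 comparisons share the 3 libraries of the induced monomer line. Twist1 mRNA differed between these lines as given above, so the partner and the amount of Twist1 cannot be told apart.

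The mean of the 3 heterodimer groups was set against the homodimer line. Otx2 was higher by 0.48 (edgeR adjusted p = 7.5e-05), and Zic2 (-0.77, 1.4e-05), Sox2 (-0.56, 3.2e-06), Fgf5 (-0.56, 5.9e-05) and Pou3f1 (-0.52, 4.1e-05) were lower, while Pou5f1, Utf1 and Sall4 did not pass. These 5 of 8 stood beside 14% of all tested genes, and the median of the 8 was -0.40 against 0.01 over all tested. All 8 passed, beside 28.9%, without sample 1 labelled TWIST1-TCF12, with Pou5f1 at -0.36, Utf1 at -0.33 and Sall4 at 0.13. Fgf5 itself overlapped between the homodimer (105 to 121 CPM) and TCF4 dimer lines (111 to 126 CPM). Singly, over all 21 libraries, the 3 groups differed. Pou5f1 was lower than in the homodimer line with the TWIST1-TCF3 label (-0.56, edgeR adjusted p = 0.0021). Sall4 was higher with TCF4 (0.23, 0.028) and TWIST1-TCF12 (0.30, 0.0018), and differed by -0.09 (0.32) with TWIST1-TCF3. Pou5f1 with TCF4 (-0.19, 0.52) and TWIST1-TCF12 (-0.07, 0.71), and Zic2 (-0.34, 0.12) and Pou3f1 (-0.27, 0.095) with TCF4, missed the threshold. All of those passed without sample 1 labelled TWIST1-TCF12.

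Among the heterodimer groups, those labelled TWIST1-TCF3 had the lowest Fgf5. Against the TCF4 dimer line, Fgf5 was lower by -1.28 ± 0.10 (SE; edgeR adjusted p = 4.2e-08), Zic2 by -0.83 (7.6e-05), Pou3f1 by -0.51 (0.00049), Pou5f1 by -0.37 (0.036) and Sall4 by -0.32 (0.00083), 5 of 8 beside 19.7% of tested genes (7.9% lower). Against the libraries labelled TWIST1-TCF12, Fgf5 (-0.78, 2.9e-05), Pou5f1 (-0.49, 0.0090), Sall4 (-0.39, 0.00015) and Zic2 (-0.39, 0.033) were lower, 4 of 8 beside 18.8% (9.06% lower). The Pou5f1 difference was -0.26 (0.0019) without sample 1 labelled TWIST1-TCF12 and -0.42 (0.051) without sample 1 labelled TWIST1-TCF3, and the Zic2 call was lost, at adjusted p from 0.054 to 0.14, when any 1 of 7 single libraries was left out. Sox2, Otx2 and Utf1 passed in neither comparison over all 21 libraries, with intervals of -0.06 to 0.27, -0.26 to 0.09 and -0.41 to 0.28 against the TCF4 dimer line. Against the libraries labelled TWIST1-TCF12 the Otx2 interval was -0.27 to 0.07 and the Utf1 interval -0.72 to -0.02 (adjusted p = 0.12). Without sample 1 labelled TWIST1-TCF12, Otx2 passed there as lower (-0.20, 0.016; 5 of 8 beside 25%) and Utf1 differed by -0.02 (0.91). Between the libraries labelled TWIST1-TCF12 and the TCF4 dimer line, Fgf5 was the 1 member that passed (-0.51, 0.012), beside 3.24% (1.17% lower). That count was 0 without TCF4 dimer sample 3, 2 without sample 2 labelled TWIST1-TCF12, and 3 without its sample 1 (beside 4.76% of tested genes) or sample 3. Pou3f1 (-0.32, 0.011) and Zic2 (-0.27, 0.023) were the 2 added without sample 1.

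Across the 21 libraries some members ran together. On the log2 CPM scale Fgf5 and Zic2 had a Pearson correlation of 0.91 (0.93 without sample 1 labelled TWIST1-TCF12), Sox2 and Pou3f1 0.80 (0.81), and Sox2 and Otx2 -0.90 (-0.94). Fgf5 and Sox2 had 0.21 (0.16). Pou5f1 and Zic2 had 0.46 with all libraries and 0.83 without that sample, and Sox2 and Utf1 0.49 and 0.80. These are descriptions over libraries that share groups, depth and normalisation, and carry no test.

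**Figure D4:**
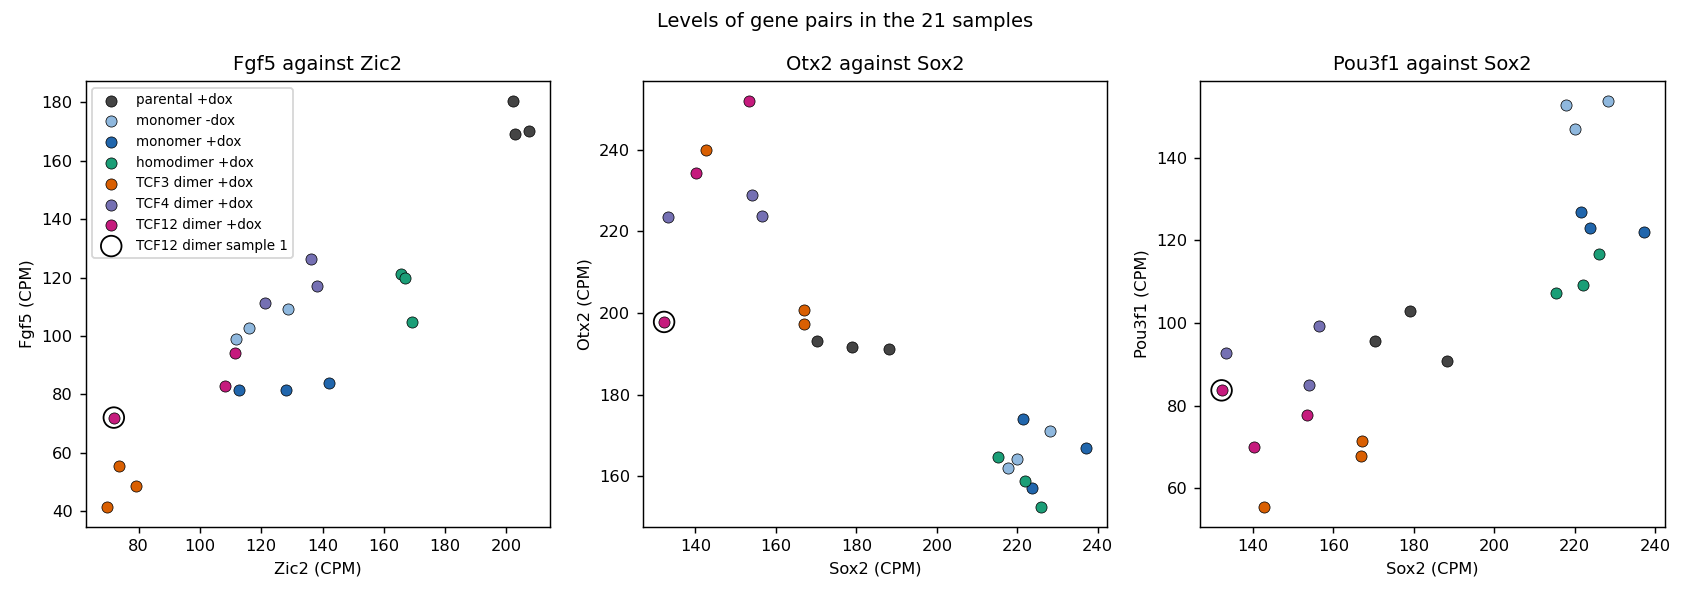
CPM of Fgf5 against Zic2, Otx2 against Sox2 and Pou3f1 against Sox2 in the 21 libraries, coloured by group, with sample 1 labelled TWIST1-TCF12 circled. Fgf5 and Zic2 are both highest in the parental libraries, and libraries with Sox2 above 210 CPM have Otx2 below 180 CPM.

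The genes whose log2 CPM ran most like each member over the 21 libraries were listed, 3 for each. For Fgf5 they were Rragb (r = 0.97), AI661453 (0.96) and Vrtn (0.96). Mean Rragb was 96.0 CPM in the parental libraries and 47.0 CPM in those labelled TWIST1-TCF3, and mean Vrtn 155 and 37.1 CPM. For Zic2 they were Zic5 (0.94), its neighbour on the chromosome and another zinc finger gene of the family, Enpp2 (0.94) and Zfp36l2 (0.93). For Pou3f1 they were Wdr46, Dppa4 (both 0.93) and Srrt (0.93), for Sox2 Slc40a1 (0.93), Zfp819 (0.92) and Slc35c1 (0.90), and for Otx2 Mertk (0.92), Ddx26b (0.92) and Cap2 (0.91). For Pou5f1 they were Crip2 (0.95), Hdgf (0.94) and Rcc2 (0.93), for Utf1 Csrp2 (0.93), Dtymk (0.93) and Gpx1 (0.91), and for Sall4 Ube2k (0.84), Atp6v1b2 (0.83) and Snrpn (0.82). The lists are loosely fixed: between 0 and 2 of the 3 names stayed without sample 1 labelled TWIST1-TCF12, and between 0 and 2 with Spearman's rank correlation.

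Other genes of the formative and primed epiblast were described from a list of 20, all tested. In the libraries labelled TWIST1-TCF3 11 fell and 1 rose against the parental line (median log2 fold change -0.46, beside 0.01 over all tested genes). In those labelled TWIST1-TCF12 11 fell and 1 rose, and in the TCF4 dimer line 8 fell and 2 rose. In the homodimer line 6 fell and 2 rose, and in the monomer line 7 fell both with and without doxycycline, while 2 and 4 rose. Of all tested genes, 12% were lower and 16.3% higher in the libraries labelled TWIST1-TCF3, and 11.5% and 15.5% in those labelled TWIST1-TCF12. These shares were 5.67% and 7.18% in the TCF4 dimer line and 4.02% and 4.81% in the homodimer line. In the monomer line they were 9.22% and 10.8% with doxycycline, and 9.43% and 10.5% without it. Without sample 1 labelled TWIST1-TCF12, 11 fell in the homodimer and in the induced monomer line, and 7 rose in the uninduced monomer line. The share of all tested genes grew as well: 9.84% and 17.1% were then lower and 18.7% higher, against 4.02%, 9.22% and 10.5% with that library. Pim2, a kinase gene, fell in all 6 groups, by up to -1.70 in the libraries labelled TWIST1-TCF3. Tdgf1, the NODAL co-receptor, and Lin28a, an RNA-binding protein that blocks let-7 maturation, also passed as lower in all 6. Dnmt3b, a de novo DNA methyltransferase of the formative state, was lower by -1.34 in the libraries labelled TWIST1-TCF3 and by -0.55 in the TCF4 dimer line, and by -0.24 in the uninduced monomer line, where it did not pass. Spry4, an inhibitor of FGF signalling, was the 1 gene that rose in the libraries labelled TWIST1-TCF3 (0.45).

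Naive pluripotency genes, a list of 14, went different ways in the same lines. In the uninduced monomer line 11 rose and 1 fell (median 1.24 beside 0.00 over all tested genes), in the induced monomer line 9 rose and 2 fell, in the libraries labelled TWIST1-TCF3 6 and 2, and in the homodimer line 5 and 2. Without sample 1 labelled TWIST1-TCF12, 9 rose in the libraries labelled TWIST1-TCF3, where the share of all tested genes that were higher went from 16.3% to 24%. In the TCF4 dimer line none rose and 10 fell, and in the libraries labelled TWIST1-TCF12 none rose and 11 fell. Nr0b1 (1.77), Klf4 (1.73) and Tbx3 (1.64), regulators of the naive state, rose in the uninduced monomer line. Nanog fell in all 6 groups, by -1.20 to -1.90. A list of 9 other pluripotency genes had 5 higher and 1 lower in the uninduced monomer line, beside 10.5% and 9.43% of all tested genes. In the libraries labelled TWIST1-TCF3 it had 1 higher and 4 lower, beside 16.3% and 12%.

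Markers of other cell types differed between these groups to unlike degrees. Of the primitive endoderm markers, 10 of 11 were tested (Afp was not), and their summed level was 721 to 742 CPM in the parental libraries, 2742 to 3258 in the uninduced and 2698 to 2968 in the induced monomer libraries, and 1587 to 2063 in those labelled TWIST1-TCF3. It was 472 to 541 in the homodimer libraries, 455 to 497 in the TCF4 dimer libraries and 373 to 529 in those labelled TWIST1-TCF12. In the monomer line with or without doxycycline, and in the libraries labelled TWIST1-TCF3, 9 of 10 passed as higher. Gata4, Gata6, Sox17 and Sox7, which define this lineage, were among the 9. The remaining marker, Foxa2, went the other way in the libraries labelled TWIST1-TCF3, each below the parental range of 11.1 to 14.9 CPM. In the monomer line, with or without doxycycline, Foxa2 overlapped with the parental libraries. Of the primitive streak markers 8 of 10 were tested and all 8 were lower in each of the 6 groups, where 4.02% to 12% of all tested genes were lower. The primitive streak sum was 221 to 264 CPM in the parental libraries and 17.2 to 43.1 in all others. The mesoderm markers summed to 21.2 to 22.8 CPM in the parental libraries and 16.6 to 18.9 in the homodimer libraries. In the TCF4 dimer libraries the mesoderm sum was 32.8 to 38.4 CPM, and in those labelled TWIST1-TCF12 57.0 to 66.1. It was 52.2 to 63.1 CPM in the monomer libraries with or without doxycycline and 75.5 to 98.3 in those labelled TWIST1-TCF3. Of these markers Pdgfra alone stood at 40.5 to 50.4 CPM in the monomer libraries, against 8.39 to 9.99 in the parental ones. Most of the mesoderm sum in the monomer line was therefore Pdgfra. Pdgfra stood at 42.0 to 44.3 CPM in the libraries labelled TWIST1-TCF3 and 12.4 to 19.9 in those labelled TWIST1-TCF12. The neural plate markers summed to 254 to 259 CPM in the parental, 143 to 166 in the uninduced and 170 to 181 in the induced monomer libraries. Their sum was 203 to 218 CPM in the homodimer and 195 to 214 in the libraries labelled TWIST1-TCF3. In the TCF4 dimer libraries it was 256 to 272 CPM, and in those labelled TWIST1-TCF12 251 to 282. The germ cell markers moved less, with a sum of 69.2 to 70.8 CPM in the parental libraries and 54.4 to 67.8 in all others. The trophoblast markers summed to 77.7 to 94.5 CPM in the parental libraries and 87.2 to 169 in all others. In bulk RNA, fewer cells that express a gene and less RNA per cell cannot be told apart, and the part of these other cells in the values of the 8 genes was not tested. The summed level of the 8 genes itself was 1877 to 1996 CPM in the parental libraries, 1899 to 1970.1 in the uninduced monomer libraries and 1368 to 1463 in those labelled TWIST1-TCF3.

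**Figure D5:**
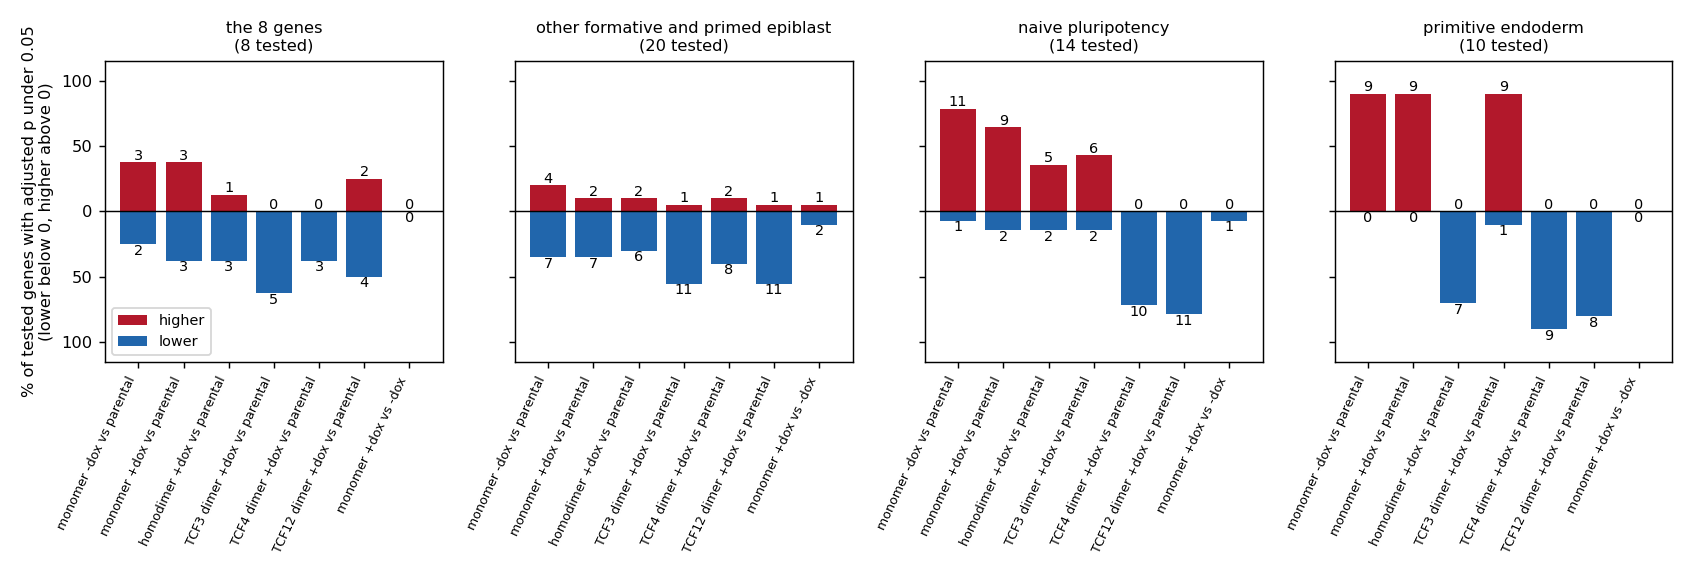
Percent of tested genes with an adjusted p under 0.05 that were higher (red, above 0) or lower (blue, below 0) in 7 comparisons, for the 8 genes and for 3 lists, with the number of genes on each bar. Naive pluripotency genes are mostly higher in the monomer line and lower in the TCF4 and TCF12 dimer libraries, and 9 of 10 primitive endoderm genes are higher in both monomer groups and with the TWIST1-TCF3 label.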

How the data were processed

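RNA-seq of day 3 embryoid bodies was deposited as 1 table of raw counts per gene symbol for each of 21 samples. A TruSeq mRNA kit was used for library preparation, per the labels' protocols, and the submitters' processing notes name FastQC, TopHat2 and HTSeq and the builds mm10 and GRCm38. The annotation and the strand setting are not given in the sources used here. Tables were joined by position, because 25 Sept and March symbols read as dates in 18 of the 21 deposited count tables. The 3 tables labelled TWIST1-TCF12 keep the symbols, so their handling and their group cannot be told apart.

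The deposited counts were tested with edgeR 4.0.16 (quasi-likelihood F-test; limma 3.58.1, R 4.3.3). All 21 samples entered 1 fit with a mean per group, TMM factors and filterByExpr (minimum count 10, minimum total 15), with Benjamini-Hochberg adjustment over 14311 genes and a threshold of 0.05. Standard errors come from the F statistic. CPM are given as mean ± SD, and correlations use log2 CPM with a prior count of 2. Genes named beside the 8 were the 3 most correlated with each, and genes of lists, as examples with large changes among those passing. The members and lists were chosen with earlier results of these data known. The script was tested on simulated data. Replicate numbers did not pair the samples: deviations from the group means correlated at 0.0192 over 63 same-numbered and -0.00926 over 126 other sample pairs. No 2 tables held identical values. Alternatives were RLE factors, library size only, DESeq2 1.42.0, no low-count filter, a filter of 1 CPM in 3 samples, only the groups compared, a replicate block, the uninduced monomer line as control, and each library left out; leaving out sample 1 labelled TWIST1-TCF12 together with sample 1 of the uninduced monomer line was added after seeing the data. Locations and lengths came from GENCODE M21, which matched 13880 of the 14311 tested genes by symbol.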

Additional observations from a re-analysis of the deposited data

Results flagged for a closer look

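Some members passed the test against the parental line in opposite directions in 2 construct lines, and the difference between those lines is given with its edgeR adjusted p. Because the pairs were picked for opposite signs against the same parental libraries, a small p was all but fixed by that choice and adds no support. Sox2 was higher in the uninduced monomer line than in the TCF4 dimer line by a log2 difference of 0.59 (9.8e-06) and than in the libraries labelled TWIST1-TCF12 by 0.65 (2.6e-06). In the induced monomer line Sox2 was higher by 0.62 (6.7e-06) and 0.68 (1.9e-06), and in the homodimer line by 0.58 (8.6e-05) and 0.64 (1.5e-05). Otx2 was higher in the libraries labelled TWIST1-TCF12 than in the homodimer line by 0.52 (0.00025). Pou3f1 was higher in the uninduced monomer line than in the libraries labelled TWIST1-TCF3 by 1.22 (9.4e-09) and than in those labelled TWIST1-TCF12 by 0.97 (8.3e-08), and in the induced monomer line by 0.93 (5.4e-07) and 0.69 (8.9e-06).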

How the results depend on the processing

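Of 120 pairs of a gene and a comparison, the direction and the side of the threshold stayed for 120 with the 1 CPM filter, 119 with RLE factors, 118 with the replicate block, 114 with DESeq2, 111 with no low-count filter, 106 with library size only and 91 with only the groups compared. The replicate block gave 2 members called between the libraries labelled TWIST1-TCF12 and the TCF4 dimer line, against 1. Of all genes 545 then passed, against 464. Between the same groups DESeq2 also gave 2, where 951 of all genes passed. No filter and library size only gave 2 there as well, and library size only gave 1 for the homodimer against the monomer, against 2. The number of all genes that passed with no filter or with library size only is not given here. With only the groups compared, the counts were as follows. Brackets hold the number of all genes that passed then, and in the fit of all 21 libraries. Against the parental line the counts were 7 for the homodimer (3113, 1265), 6 for the TCF4 dimer (4010, 1839) and 2 for the libraries labelled TWIST1-TCF12 (824, 3864). For the monomer with against without doxycycline the count was 2 (682, 286). Against the monomer it was 5 for the homodimer (4813, 2642) and 2 for the libraries labelled TWIST1-TCF12 (1516, 4799). It was 0 for the libraries labelled TWIST1-TCF12 against the TCF4 dimer line (0, 464), and 0 for those labelled TWIST1-TCF3 against those labelled TWIST1-TCF12 (236, 2686). Fewer samples then set the spread, and only the fits with the TWIST1-TCF12 label held its sample 1.

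With both samples that stood apart left out, the counts were 7 for the homodimer and 5 for the TCF4 dimer line against the parental line, 2 within the monomer line, 4 for the homodimer against the monomer, 8 for the heterodimers against the homodimer and 3 for the libraries labelled TWIST1-TCF12 against the TCF4 dimer line. The share of all tested genes that passed in that fit is not given here. With only sample 1 labelled TWIST1-TCF12 left out, the share of all tested genes that passed grew. In these 6 comparisons, in the order given, it went from 8.84% to 20.4%, from 12.9% to 28.1% and from 2% to 6.17%. For the last 3 it went from 18.5% to 33.3%, from 14% to 28.9% and from 3.24% to 4.76%. Leaving out single libraries gave 6 to 7 members called for the monomer, 2 to 7 for the homodimer, 5 to 7 for the libraries labelled TWIST1-TCF3, 2 to 5 for the TCF4 dimer, 3 to 6 for the libraries labelled TWIST1-TCF12 and 4 to 7 for the uninduced monomer, all against the parental line. Within the monomer line it gave 0 to 2. Against the monomer it gave 1 to 4 for the homodimer, 5 to 8 for the libraries labelled TWIST1-TCF3, 4 to 6 for the TCF4 dimer and 4 to 7 for the libraries labelled TWIST1-TCF12. The heterodimers against the homodimer gave 5 to 8. Between heterodimers it gave 4 to 5 (TCF3 against TCF4), 0 to 3 (TCF12 against TCF4) and 3 to 5 (TCF3 against TCF12). The highest count of each range was reached without sample 1 labelled TWIST1-TCF12, where more of all tested genes passed in every comparison. For the fits without any other single library, the share of all tested genes that passed is not given here.

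Pou5f1 in the libraries labelled TWIST1-TCF12 turned to lower without their sample 1, at -0.23 against the parental line and -0.16 against the monomer (adjusted p = 0.037), and with both samples left out at -0.23 and -0.18; over all single libraries left out these values ran up to 0.11 and 0.17. With the uninduced monomer line as the control, 8 members passed in the libraries labelled TWIST1-TCF3, beside 28.9% of all tested genes, against 5 beside 28.3%. Signs then turned in the homodimer line for Sox2 (-0.0060), Fgf5 (0.15), Pou3f1 (-0.44) and Zic2 (0.49), in the libraries labelled TWIST1-TCF3 for Utf1 (-0.54), in the TCF4 dimer line for Fgf5 (0.19), Utf1 (-0.48) and Zic2 (0.15), and in those labelled TWIST1-TCF12 for Utf1 (-0.17), because that line itself differs from the parental line. Each of the 8 genes had at least 504 counts in every library.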
